A study of Mus musculus with 2 samples.

Results

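The nuclear genes of the oxidative phosphorylation machinery were examined in splenic Treg cells of littermate controls and of Foxp3-Mettl14f/+ cKO mice. Members were chosen by symbol: genes starting with Ndufa, Ndufb, Ndufc, Ndufs, Ndufv, Uqcr, Atp5, Cox4, Cox5, Cox6, Cox7 or Cox8, together with Sdha, Sdhb, Sdhc, Sdhd and Cyc1, while the Ndufaf assembly factors were left out. This gave 87 of the 20938 genes in the tables, of which 37 were counted in complex I, 4 in complex II, 9 in complex III, 20 in complex IV and 17 in complex V. Of those counted in complex I, Ndufb4c is annotated as a processed pseudogene. Ndufa4 and Ndufa4l2 were counted in complex IV, where the Ndufa4 protein is now placed. RNA was sequenced from 1 library per genotype, on day 7 after transplantation. Recipients on a C57BL/6J background were made diabetic with streptozotocin, received BALB/c islets under the kidney capsule and were not treated with mAbs. In the cKO mice the Foxp3-driven Cre acts on 1 floxed Mettl14 allele, so Mettl14, the partner of the m6A RNA methyltransferase METTL3, is lowered in Treg cells and not removed. The littermate controls are given as wild type in the sample labels, and the study's methods use Mettl14f/f mice as controls elsewhere. The labels also call the cKO library a Foxp3 knockdown, which differs from the genotype in the design text, and the genotype of the design text is used here. Treg cells were isolated with a CD4+CD25+ magnetic kit, and neither the ages of the mice nor the number of animals behind a library is given in the sources used here.

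Oxidative phosphorylation takes place in the inner mitochondrial membrane. Complex I oxidises NADH and complex II oxidises succinate, and both pass electrons through ubiquinone to complex III, through cytochrome c to complex IV and from there to oxygen. Complexes I, III and IV pump protons, and complex V, the ATP synthase, uses the resulting gradient to make ATP. Most subunits are encoded in the nucleus, and a small set, including core subunits of complexes I, III and IV, is encoded by mitochondrial DNA. Treg cells are known to rely on mitochondrial respiration more than effector T cells do. No mitochondrially encoded gene was analysed here, since the tables used held 0 rows with such a symbol.

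Many of these genes are known targets of the transcription factors NRF1 and GABPA (also called NRF2), so their promoters were searched for the letters both factors bind. The windows ran from 250 bases before to 50 bases after the RefSeq start and were available for 69 members, 67 of them among the genes tested. The letters CGCANGCGC (NRF1) were found on either strand in 24 of these 67 promoters (35.8%), against 12.2% of 13187 promoters of all tested genes and 7.12% of 27025 promoters in all. CCGGAAG (GABPA) was found in 17 (25.4%), against 16.1% and 9.93%. ATGGCGG (YY1) was found in 10 (14.9%), against 7.48% and 4.69%, and TNAAGGTCA (ESRRA) in 3 (4.48%), against 1.02% and 1.43%. The motifs do not contain one another, although matches of different motifs may lie close together. One stretch is shown for each of complexes II to V and a pair for complex I, with the motif named beside it or its reverse complement in capitals. The Sdhd stretch also ends in the reverse complement of the GABPA letters, which is left in lower case. Ndufb6 and Uqcr11 were taken because they were among the members with the largest differences, and the others because they carry the NRF1 letters upstream of the annotated gene. All 6 are written 5′ to 3′ along the gene, which lies on the minus strand in each case, from RefSeq on GRCm38.p6.
Ndufb6 (complex I, GABPA, chr4:40279617-40279671): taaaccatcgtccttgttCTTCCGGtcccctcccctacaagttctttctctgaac
Ndufs5 (complex I, NRF1, chr4:123718245-123718313): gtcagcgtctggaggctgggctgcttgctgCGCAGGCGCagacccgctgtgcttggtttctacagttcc
Sdhd (complex II, NRF1, chr9:50603889-50603957): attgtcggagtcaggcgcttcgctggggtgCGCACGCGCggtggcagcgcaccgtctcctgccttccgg
Uqcr11 (complex III, GABPA, chr10:80406851-80406917): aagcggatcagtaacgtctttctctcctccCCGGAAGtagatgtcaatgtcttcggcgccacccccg
Cox6a1 (complex IV, NRF1, chr5:115349036-115349104): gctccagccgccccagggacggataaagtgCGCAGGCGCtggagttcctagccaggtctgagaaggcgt
Atp5h (complex V, NRF1, chr11:115420021-115420089): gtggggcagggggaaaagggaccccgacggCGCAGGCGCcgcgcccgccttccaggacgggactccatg

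A match describes the letters only, and no binding was measured. The median log2 change was -0.25 for the 24 members with the NRF1 letters and -0.32 for the 43 without, and it was -0.28 for the 17 with the GABPA letters and -0.30 for the 50 without. For the YY1 letters it was -0.39 for the 10 members with them and -0.28 for the 57 without, and for the ESRRA letters -0.28 for 3 and -0.30 for 64.

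Levels are the deposited values, which are whole reads divided by 1 size factor per library. The control library held 20239325 reads and the cKO library 18327535, and 3 reads, taken as the smallest count that can be told from 0, equal levels of 2.90 and 3.41. A change is log2((cKO + 1)/(control + 1)) of the levels, for the 16659 genes whose mean was no lower than 1. There were no replicates, so no difference between genotypes could be tested. Each 95% interval is an exact Clopper-Pearson interval of a gene's reads. It covers the counting error of reads alone and no biological variation. It is too narrow where PCR copies of 1 molecule were counted, which cannot be recognised in reads that carry no molecular identifier. Mettl14 was at 917 in the control and 741 in the cKO library (log2 change -0.31, interval -0.45 to -0.16), and Foxp3, the defining Treg factor, was at 1497 and 1548 (0.05, -0.06 to 0.15). Both libraries held Treg markers, and the median change of 12 such genes was -0.02. That median hides a split, with 6 genes below and 6 above 0, from -0.71 for Ikzf4 to 1.35 for Lrrc32. Among them, Il2ra was at 776 and 1242 (0.68, 0.55 to 0.81) and Ctla4 at 595 and 787 (0.40, 0.24 to 0.56). Ikzf2 was at 2447 and 2104 (-0.22, -0.31 to -0.13). Markers of other cells differed as well, and none of the markers named here was at 0 in either library. All 14 B cell markers and all 16 macrophage markers exceeded 1.5-fold in the direction of the cKO library, with summed shares of 0.127% and 0.447% of reads for B cells and 0.139% and 0.292% for macrophages in the control and the cKO library. The 18 T cell core genes had a median change of -0.35 (0.346% and 0.256% of reads), 20 proliferation genes -0.62 (0.571% and 0.349%), and 22 erythroid genes -1.19 (0.383% and 0.192%). At least 1.5-fold lower were 2 of the T cell core genes, 13 of the proliferation genes and 16 of the erythroid genes. Over all genes, 24.2% were lower and 17.2% higher by that fold. The erythroid genes did not move as 1 group. Their quartiles were -1.28 and -0.31, with 5 genes above 0, of which 1 was at least 1.5-fold higher. The extremes were 2 beta-globin genes, Hbb-b1 at -7.42 and Hbb-bs at 9.58. How reads were assigned between these 2, and which alleles each mouse carried, was not tested. The 13 granulocyte genes had a median change of 0.27 (1.27% and 1.63%). The part of these differences in the results on oxidative phosphorylation was not tested, and in bulk RNA fewer cells of a type and less RNA per cell cannot be told apart.

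Of the 87 members, 83 passed the filter, and the other 4, Cox4i2, Cox7b2, Cox8b and Cox8c, were listed at 0 in both libraries. The members as a group were lower in the cKO library on the deposited scale, by a small and rather even amount, although a scaling that makes the 18 T cell core genes equal in both libraries, called the T cell core scaling here, moved their median to 0.07. Their median change was -0.28, against -0.04 over all 16659 genes. Of the 83 members, 76 (91.6%) were below 0, against 53.3% of all genes. The quartiles of the members were -0.43 and -0.17. Summed over members, the reads made up 0.625% of the control library and 0.487% of the cKO library. The log2 change of the summed levels was -0.27 (-0.28 to -0.26). A scaling moves every gene alike, so the distance between the members' median and that of all genes was -0.24 under each of 5 scalings, the T cell core scaling included, which moved the median of all genes to 0.31.

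At least 1.5-fold lower were 11 of 83 members, where 24.2% of all genes were, and at least 1.5-fold higher was 1 member, where 17.2% of all genes were. These shares of all genes include many genes with few reads. Among the genes averaging 100 or more, 9 of 80 members were at least 1.5-fold lower, against 8.71% of 10693 genes, and 0 were higher, against 11.9%. Counting intervals lay wholly below 0 for 64 members, against 34.7% of all genes. They lay wholly above 0 for 3 members, against 31.6% of all genes. Those 3 were Ndufb11, Ndufa6 and Cox7a2l. An exact binomial test (two-sided) of each gene's reads compares libraries, not genotypes. With an adjusted p under 0.1 and 1.5-fold, it called 11 members lower, against 17.5% of 14863 genes with at least 10 reads, and 0 higher, against 14.8%. edgeR's exact test, run with a biological coefficient of variation assumed at 0.2, called 2 members lower (9.75% of all genes) and 0 higher (6.45%).

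**Figure D1:**
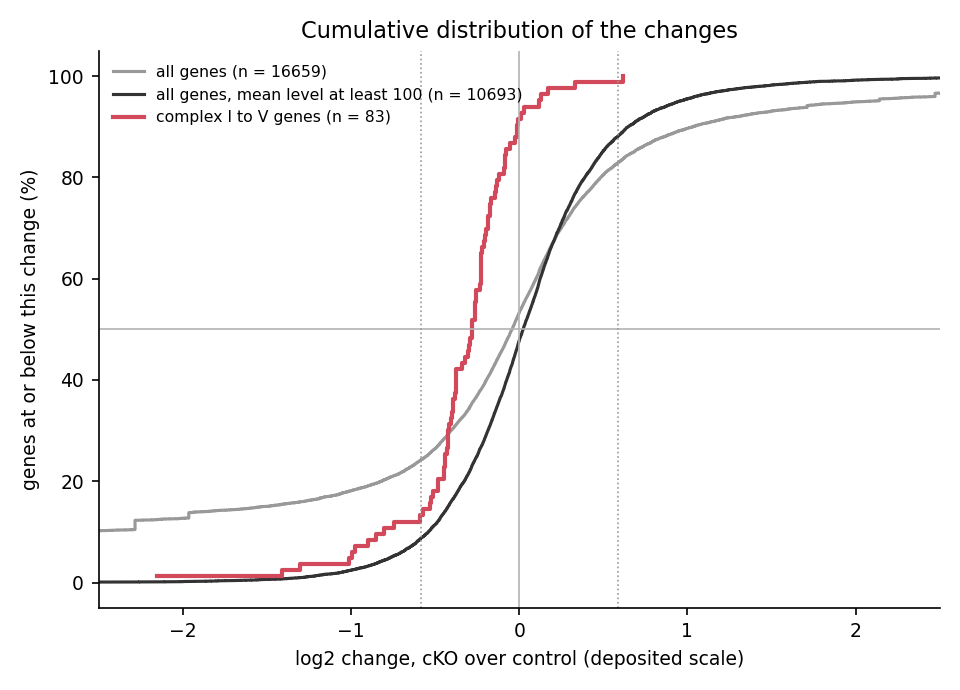
Cumulative share of genes (%, vertical axis) at or below each log2 change, cKO over control (horizontal axis, deposited scale), for 83 complex I to V genes, all 16659 genes and the 10693 genes averaging 100 or more. Dotted lines mark 1.5-fold, and the axis is limited to the central range. The curve of the complex I to V genes is steep, with 91.6% of them below 0, where 53.3% of all genes and 47.8% of the genes at or above 100 lie below 0.

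The median changes of the 5 complexes lay close to one another. The medians were -0.31 for complex I, -0.23 for complex II, -0.26 for complex III, -0.40 for complex IV and -0.22 for complex V. Under the T cell core scaling they were 0.05, 0.12, 0.09, -0.05 and 0.13, so that only complex IV kept its sign. The rank of complex IV as the lowest depended on which genes were counted. Without its tissue isoforms its median was -0.30, which put it above complex I at -0.31, and without the supercomplex factor Cox7a2l as well it was -0.37. With Ndufa4 and Ndufa4l2 counted in complex I, the medians were -0.30 for complex IV and -0.32 for complex I. The quartiles of complex I were -0.40 and -0.17, and between them lay the medians of complexes II to V. Summed levels gave another order, with log2 changes of -0.26, -0.23, -0.28, -0.22 and -0.30 for complexes I to V. The counting intervals of these sums were -0.28 to -0.24, -0.28 to -0.19, -0.31 to -0.24, -0.25 to -0.19 and -0.32 to -0.28. The interval of complex V thus lay below those of complexes I, II and IV, and the intervals of complexes I to IV overlapped. A sum follows its most abundant genes. Atp5b alone, with a change of -0.52, held 11665 and 8120 of the complex V sums of 47264 and 38316. Its part in the place of complex V was not tested, and by median complex V had the smallest change. Each complex had members on both sides of the median of all genes, except complex V, where all 17 lay below it.

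**Figure D2:**
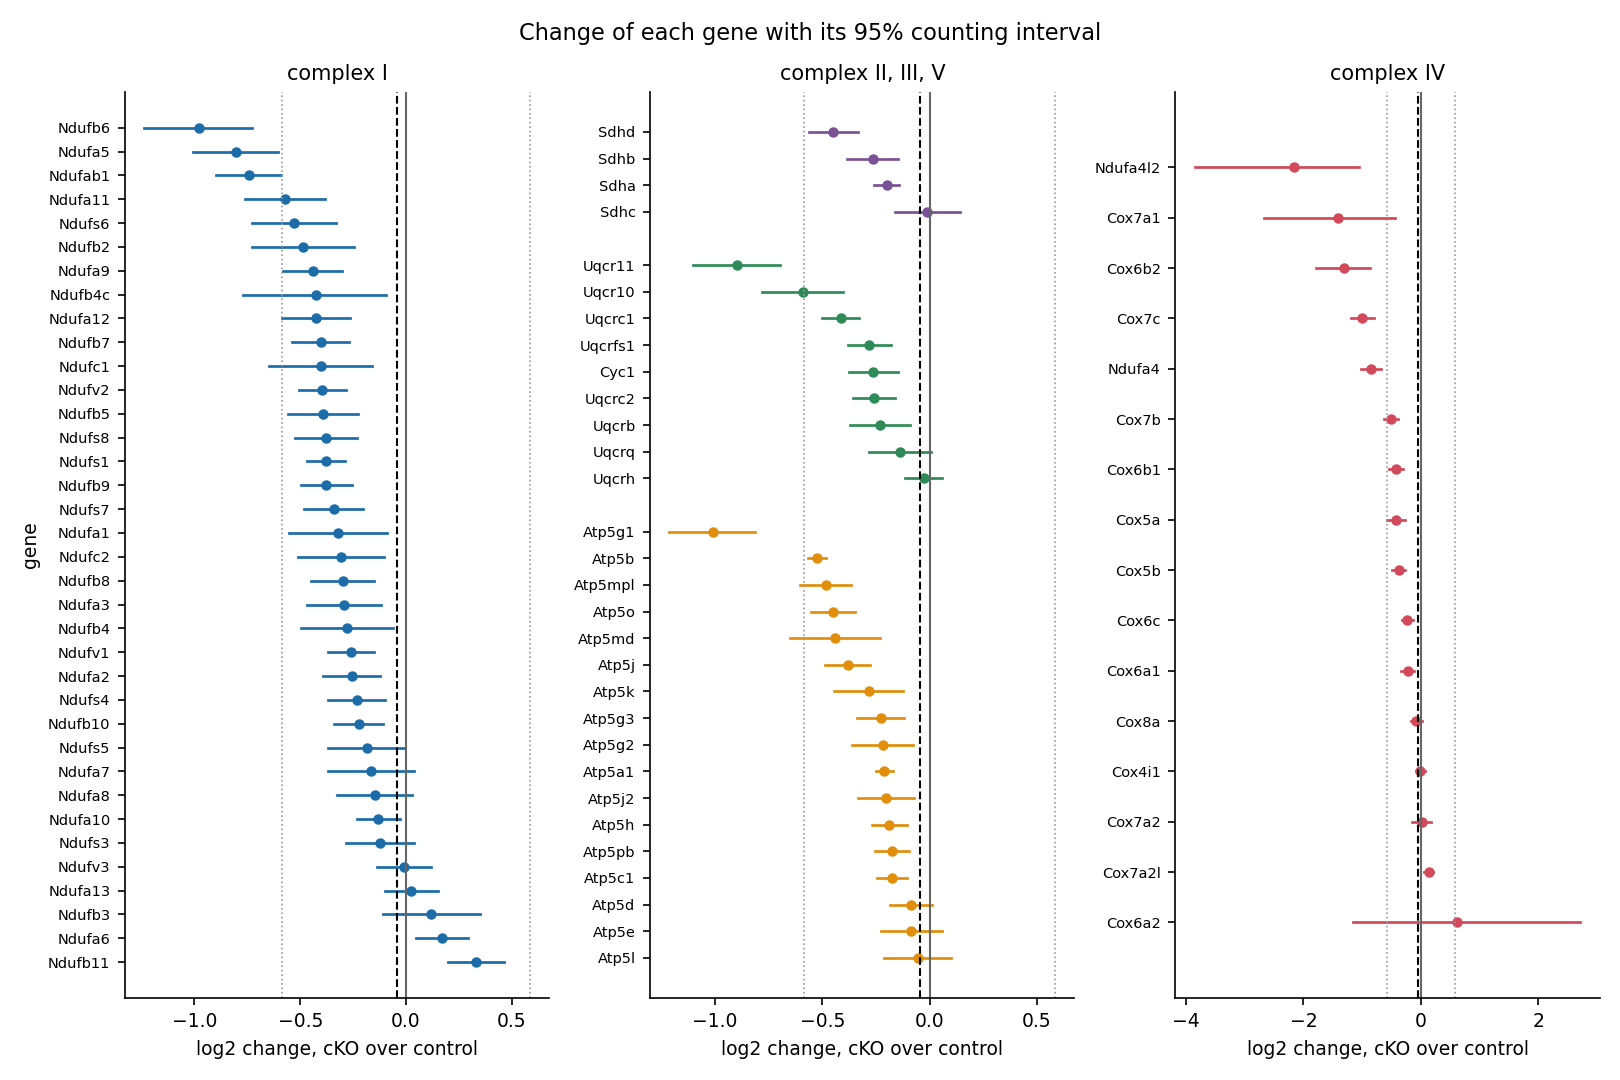
Log2 change, cKO over control (horizontal axis), of the tested genes except 1 of complex I, by complex, each as a point with its 95% counting interval. The solid line is 0, the dashed line the median of all genes (-0.04) and the dotted lines 1.5-fold, and the complex IV panel has a wider axis. Most points lie left of the dashed line in every complex, and Ndufb11, Ndufa6 and Cox7a2l have intervals wholly to the right of 0.

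The counts by complex stand beside 53.3% of all genes below 0 on the deposited scale. At least 1.5-fold lower were 24.2% of all genes and 8.71% of those averaging 100 or more. Counts below 0 under the T cell core scaling stand beside a median of all genes of 0.31. In complex I, 33 of 37 members were below 0 (16 under the T cell core scaling), and 3 were at least 1.5-fold lower. The lowest was Ndufb6, an accessory subunit of the membrane arm (chromosome 4, 40270591 to 40279421), with 429 reads in the control and 185 in the cKO library. Its level went from 415 to 210, a 1.97-fold difference (log2 change -0.98, -1.24 to -0.73). Its exons overlap those of Smim27 on the other strand, which held 65 and 102 reads and was higher in the cKO library, and 34.1% of its 50-base windows were shared with that gene. Whether the counting used strand is not given in the sources used here. Ndufa5, an accessory subunit of the matrix arm (chromosome 6, 24518666 to 24528013), was at 611 and 350 (-0.80, -1.01 to -0.60) and shared no window with another gene. Ndufab1, the mitochondrial acyl carrier protein, which is also needed for lipoic acid synthesis, was at 1013 and 605 (-0.74, -0.90 to -0.59). These 3 were lower by 1.67-fold to 1.97-fold, and the next, Ndufa11, stopped just short of the 1.5-fold line at 605 and 407 (-0.57).

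The 7 nuclear core subunits of complex I, which form its catalytic arm, had a median of -0.34 on the deposited scale. The 30 other members of the complex, which are accessory subunits and the pseudogene Ndufb4c, had a median of -0.30. Under the T cell core scaling, Ndufs3, Ndufs7 and Ndufv1 were above 0. The flavin-binding Ndufv1 was at 1587 and 1324 (-0.26, -0.37 to -0.15), and its partner Ndufv2 at 1617 and 1229 (-0.40, -0.51 to -0.28). Ndufs1, the largest subunit and carrier of several clusters, was at 2419 and 1863 (-0.38, -0.47 to -0.29). Ndufs7 and Ndufs8, which hold clusters near the quinone, were at 1030 and 813 (-0.34) and at 952 and 732 (-0.38). Ndufs3 was at 708 and 650.5 (-0.12), and its interval included 0. At the upper end stood Ndufb11, an X-linked accessory subunit, at 874 and 1100 (0.33, 0.20 to 0.46). Its exons overlap those of Rbm10 on the other strand, which was at 2155 and 1688, and 17.5% of its windows were shared with another gene. Ndufa6, near the junction of the arms, was at 1066 and 1201 (0.17, 0.05 to 0.29). The most abundant member per length in the control library was Ndufb9, at 1380 and 1062 (-0.38).

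In complex II, which is also an enzyme of the TCA cycle, all 4 members were below 0 on the deposited scale, while the T cell core scaling put Sdha, Sdhb and Sdhc above 0. Sdha, the flavoprotein that oxidises succinate, was the most abundant, at 5238 and 4562 (-0.20, -0.26 to -0.14). Sdhb, the iron-sulphur subunit, was at 1391 and 1158 (-0.26, -0.38 to -0.15). The membrane anchors differed from each other: Sdhd was the lowest, at 1573 and 1153 (-0.45, -0.56 to -0.33), and Sdhc was at 766 and 761 (-0.01, -0.16 to 0.14). Their counting intervals did not overlap. Sdhc and Sdhd pair in the membrane and bind the haem of the complex. None of the 4 members was beyond 1.5-fold.

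In complex III, all 9 members were below 0 (3 under the T cell core scaling), and the small subunits Uqcr11 and Uqcr10 were at least 1.5-fold lower. Uqcr11 (chromosome 10, 80402997 to 80406830), whose promoter carries the GABPA letters shown above, went from 640 to 292 reads and from a level of 619 to 332 (-0.90, -1.10 to -0.70). Uqcr10 was at 626 and 415 (-0.59, -0.78 to -0.41), just past the 1.5-fold line. The catalytic subunits differed less. Uqcrfs1, the Rieske iron-sulphur protein, was at 1912 and 1573 (-0.28, -0.38 to -0.18), and Cyc1, cytochrome c1, at 1462 and 1218 (-0.26, -0.38 to -0.15), and both were above 0 under the T cell core scaling. Uqcrh, the hinge protein that helps cytochrome c1 meet cytochrome c, was the highest, at 2287 and 2244 (-0.03, -0.11 to 0.06). It was also the most abundant member of the complex per length.

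Complex IV had the widest range, from -2.16 for Ndufa4l2 to 0.62 for Cox6a2, and 13 of its 16 tested members were below 0 (9 under the T cell core scaling). Of its ubiquitous subunits, 2 were at least 1.5-fold lower. Cox7c, a small subunit of the membrane part (chromosome 13, 86044816 to 86046904), had 751 and 320 reads and levels of 727 and 364 (-0.995, -1.19 to -0.81). Of its windows, 53.0% were shared, most of them with Gm10012, so its counts are uncertain. Ndufa4 (chromosome 6, 11900292 to 11907497), which was first assigned to complex I, was at 872 and 483 (-0.85, -1.02 to -0.68) and shared no window. Other subunits were nearly level. Cox4i1, the regulatory subunit that binds ATP, was at 2967 and 2952 (-0.01, -0.08 to 0.07), although 12.2% of its windows were shared with the antisense gene Emc8. Cox8a was at 1838 and 1741 (-0.08, -0.18 to 0.02), and Cox7a2 at 693 and 698 (0.01). Cox6c, the most abundant per length in the control library, was at 2153 and 1837 (-0.23). Cox5a and Cox5b, which lie at the matrix side, were at 939 and 700.5 (-0.42) and at 1668 and 1286 (-0.37). Within this complex, Cox7c was thus lower by 1.99-fold where Cox4i1 was lower by 1.01-fold.

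In complex V, all 17 members were below 0 (6 under the T cell core scaling) and below the median of all genes. Atp5b, the catalytic β subunit of F1 (chromosome 10, 128083273 to 128090391), had 12058 and 7141 reads and levels of 11665 and 8120 (-0.52, -0.56 to -0.48). Atp5a1, the α subunit that alternates with β in the F1 ring, had 12459 and 9157 reads and levels of 12053 and 10413 (-0.21, -0.25 to -0.17). The α and β subunits are used in equal numbers, and their counting intervals did not overlap. Atp5c1, the γ subunit of the central stalk, was at 3686 and 3266 (-0.17, -0.24 to -0.10), and like Atp5a1 it was above 0 under the T cell core scaling, whereas Atp5b was not. The medians were -0.17 for the 5 members of F1, -0.23 for the 3 genes of the c ring, -0.28 for the 4 of the peripheral stalk and -0.28 for the 5 other membrane subunits. Atp5l was the highest, at 730 and 703 (-0.06), and 84.8% of its windows were shared, most of them with Gm10221. Atp5o, the subunit that joins the stalk to F1, was at 1975 and 1448 (-0.45, -0.55 to -0.35). The inhibitor of the enzyme, Atpif1, whose symbol puts it outside the members, was at 3738 and 2013 (-0.89, -0.98 to -0.81).

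**Figure D3:**
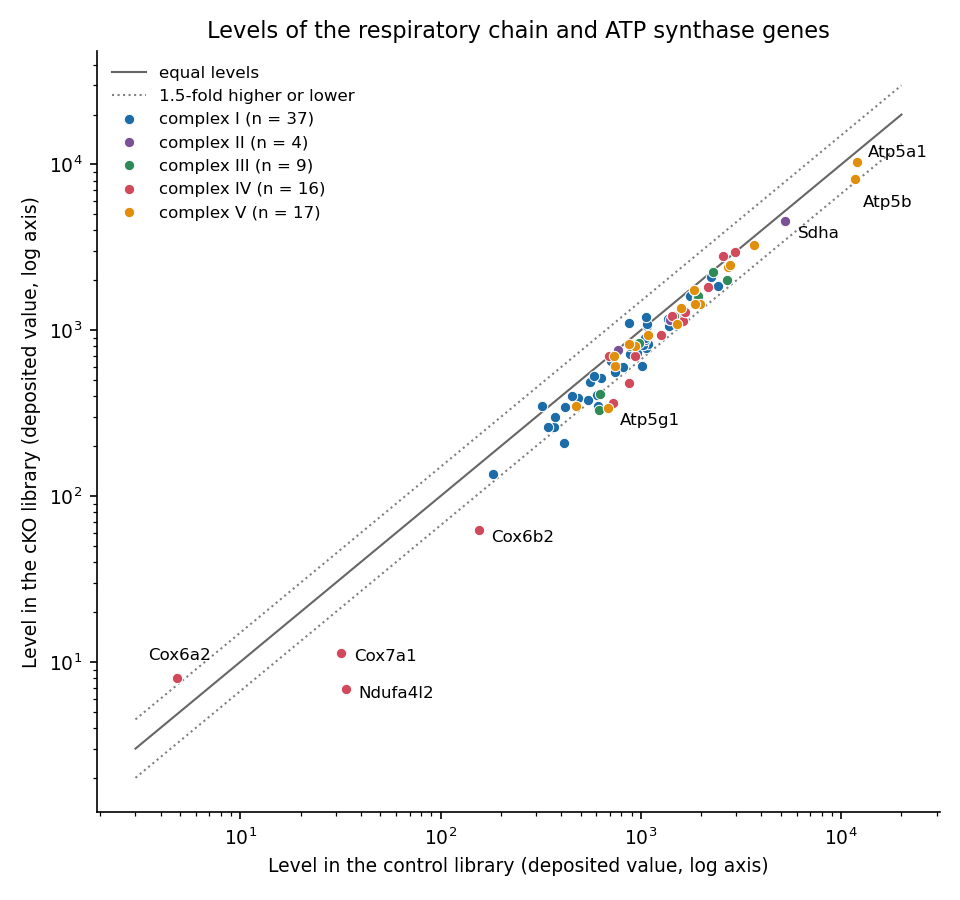
Level of each of 83 genes in the control library (horizontal axis) and the cKO library (vertical axis), as deposited values on log axes, coloured by complex. The solid line marks equal levels and the dotted lines 1.5-fold. Most points lie just under the line of equal levels, from Atp5a1 and Atp5b at the top to Cox7a1, Ndufa4l2 and Cox6a2, each with fewer than 40 reads, at the bottom.

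The proportions of some isoforms differed between the libraries. The c subunit of the ATP synthase, which forms the rotating ring, is encoded by Atp5g1, Atp5g2 and Atp5g3, whose mature proteins are the same. Atp5g1 (chromosome 11, 96068852 to 96075670) had 706 and 298 reads and levels of 683 and 339 (-1.01, -1.21 to -0.81). Atp5g2 was at 932 and 801 (-0.22), and Atp5g3 at 1592 and 1359 (-0.23), both with values above 0 under the T cell core scaling. Of the reads of the 3 genes, Atp5g1 held 21.3% (19.9 to 22.7) in the control library and 13.6% (12.2 to 15.1) in the cKO library. Atp5g3 held 49.7% (47.9 to 51.4) and 54.4% (52.3 to 56.5). These shares do not depend on scaling, but 66.0% of the Atp5g1 windows and 87.4% of the Atp5g2 windows were shared with pseudogenes, so the counts of both are uncertain.

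Subunits of complex IV that are known from heart, muscle, testis or lung were at low levels or at 0. Cox6b2, known from testis, had 161 and 55 reads and levels of 156 and 62.5 (-1.30, -1.79 to -0.87). It held 11.0% (9.42 to 12.7) and 6.23% (4.73 to 8.03) of the reads of Cox6b1 and Cox6b2 together. Cox7a1, the heart and muscle form, had 33 and 10 reads (-1.41, -2.67 to -0.43), which was 4.41% and 1.60% of the Cox7a reads. Ndufa4l2, a paralogue of Ndufa4 that responds to hypoxia, had 35 and 6 reads (-2.16, -3.85 to -1.05). It held 3.74% (2.62 to 5.16) of the reads of the pair in the control library and 1.39% (0.513 to 3.01) in the cKO library, so these shares overlapped. In edgeR's exact test, Ndufa4l2 and Cox6b2 were the members called, with adjusted p of 0.0182 and 0.0429 over all genes. Cox6a2, another muscle form, had 5 and 7 reads, and its interval ran from -1.15 to 2.72. The ubiquitous partners Cox6a1 and Cox6b1 were at 1428 and 1220 (-0.23) and at 1263 and 942 (-0.42), and the value of Cox6a1 was above 0 under the T cell core scaling. Cox4i2, known from lung, had 0 reads in both libraries, which allows up to 0.0978% and 0.116% of the reads of the Cox4 pair. Cox7b2 and Cox8b, also at 0, were allowed up to 0.179% and 0.300% beside Cox7b and up to 0.158% and 0.196% beside Cox8a. Cox7b itself was at 1622 and 1137 (-0.51, -0.63 to -0.40).

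**Figure D4:**
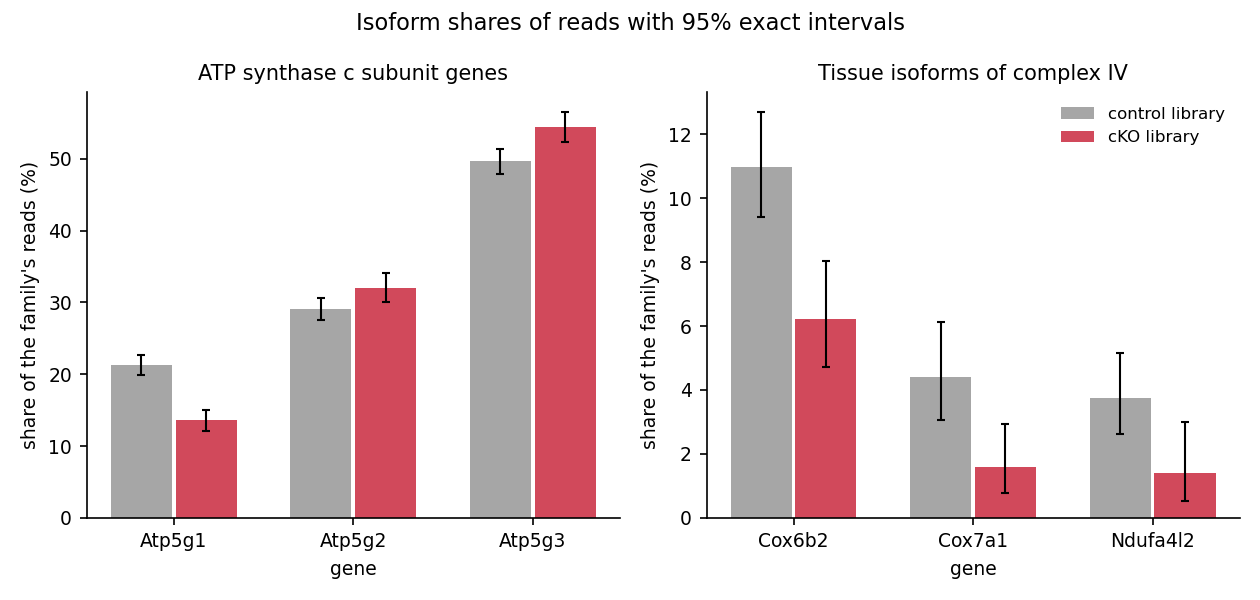
Share of reads (%, vertical axis from 0) of each gene among its isoform family in the control and the cKO library, for the 3 c subunit genes and for Cox6b2, Cox7a1 and Ndufa4l2, each within its family. Bars are single libraries and lines are 95% exact binomial intervals. The Atp5g1 share is 21.3% and 13.6%, and the Cox6b2 share 11.0% and 6.23%.

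The order of the levels was much the same in both libraries. Over 78 members without the tissue isoforms and Ndufb4c, Spearman's rho of the levels was 0.97, a description over genes that share libraries. Per kilobase of transcript, the median level in the control library was 899 for complex I, 1248 for complex II, 1402 for complex III, 1986 for complex IV and 2080 for complex V. In the cKO library these medians were 736, 975, 956, 1505 and 1871. Complexes IV and V thus stood above complex I in both libraries, and complexes II and III changed places. Atp5b was the highest of all, at 6088 and 4238 per kilobase. The spread inside a complex exceeded that between complexes, with a 6.73-fold span in complex I (Ndufab1 to Ndufb9) and a 4.07-fold span in complex IV (Cox7a2 to Cox6c).

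Transcript length and sequence sharing moved with the changes to some degree. Among genes other than the members that averaged 100 or more, the median change was -0.15 for transcripts under 750 bases, -0.06 from 750 to under 1500, 0.00081 from 1500 to under 3000 and 0.07 from 3000 bases. The members' medians in the same classes were -0.31 (43 genes), -0.28 (23), -0.23 (15) and -0.38 (2). In each class the members' median was below that of the other genes, although the members were not filtered at 100. The class from 3000 bases held only 2 members. Windows of 50 bases that also occur in another gene made up at least 10% of the transcript in 33 members, whose median was -0.37, and in 25 of these the closest gene had no row of its own. The other 50 members had a median of -0.26. Exons of 27 members overlap a gene on the other strand. Ndufb4c shared 100% of its windows with Ndufb4, and their values of 184 and 136 and of 418 and 345 cannot be assigned with certainty. The part of length and sharing in the changes was not tested.

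Other genes of the same pathway were given from lists. For the counts past 1.5-fold below, 24.2% of all genes were lower and 17.2% higher. Among genes averaging 100 or more, these shares were 8.71% and 11.9%. The mitochondrial ribosome, which makes the mitochondrially encoded subunits, had a median of -0.30 over 78 genes, with 15 at least 1.5-fold lower and 2 higher. Mrpl47, of its large subunit, was at 307 and 115 (-1.41), and Mrps24, of its small subunit, at 362 and 589 (0.70). Exons of Mrpl47 overlap those of Ndufb5 on the other strand, and 16.2% of the Ndufb5 windows were shared with Mrpl47. The TCA cycle and pyruvate dehydrogenase, which supply NADH and succinate, had -0.26 over 16 genes, with 2 at least 1.5-fold lower: Idh3a at 1958 and 1277 (-0.62) and Suclg1 at 2032 and 1344 (-0.60). Suclg2, which joins Suclg1 in the GTP-forming succinyl-CoA ligase, was at 589 and 794 (0.43, 0.27 to 0.59). The carriers of ATP, phosphate and electrons had a median of -0.16 over 10 genes, with none beyond 1.5-fold. Cytochrome c (Cycs) was at 1537 and 1104 (-0.48), and Etfa, a subunit of the flavoprotein that takes electrons from fatty acid oxidation, at 1139 and 782 (-0.54). Glycolysis had -0.16 over 17 genes, with 2 at least 1.5-fold lower and 1 higher. Cytoplasmic ribosomal proteins had -0.03 over 76 genes, with 0 lower and 2 higher. Under the T cell core scaling, these medians would each be higher by about 0.35 and so above 0. In glycolysis, Pfkm was lower, at 1079 and 621 (-0.80), and Aldoc higher, at 26 and 51 reads (1.17).

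The 50 assembly factors, which build the complexes without staying in them, had a median of -0.15, which was above 0 under the T cell core scaling. They ranged from -1.47 to 1.60. At least 1.5-fold lower were 7 (14%), against 24.2% of all genes, and at least 1.5-fold higher were 4 (8%), against 17.2%. Lower were Tmem126b, a factor of complex I membrane arm assembly (149 and 58.0, -1.35, -1.85 to -0.90), and Tmem70, a factor for complexes V and I (577 and 295, -0.97). Sdhaf3 had 54 and 16 reads (-1.47). Higher were Sdhaf1, which helps insert the clusters of Sdhb (270 and 496, 0.87, 0.66 to 1.10), and Pet117 (14 and 38 reads, 1.60). The assembly factors of complex II thus differed from each other in both directions.

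The 14 regulators had a median of 0.10 on the deposited scale, and the T cell core scaling would raise each by about 0.35. Gabpa, Pprc1 and Tfam would then be above 0, while Gabpb2 and Tfb1m would stay below. Nrf1 was at 1452 and 1653 (0.19, 0.08 to 0.29), Esrra at 385 and 481 (0.32), and Gabpa at 2599 and 2238 (-0.22). Exons of Gabpa overlap those of Atp5j on the other strand. Gabpb2, a partner of Gabpa, was at 6274 and 4028 (-0.64, -0.70 to -0.58), and Tfb1m, a methyltransferase of mitochondrial ribosomal RNA, at 236 and 134 (-0.81). Ppargc1a, the coactivator PGC-1α that is known to raise the transcription of these genes, had 2 and 38 reads. The control count lies under the 3 reads taken as the floor, and the counting interval of the log2 ratio ran from 2.53 to 7.58. The related coactivators Ppargc1b and Pprc1 were at 830 and 969 (0.22) and at 2770 and 2346 (-0.24). Tfam, which packages mitochondrial DNA, was at 1166 and 996 (-0.23), and Myc at 2556 and 3089 (0.27).

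**Figure D5:**
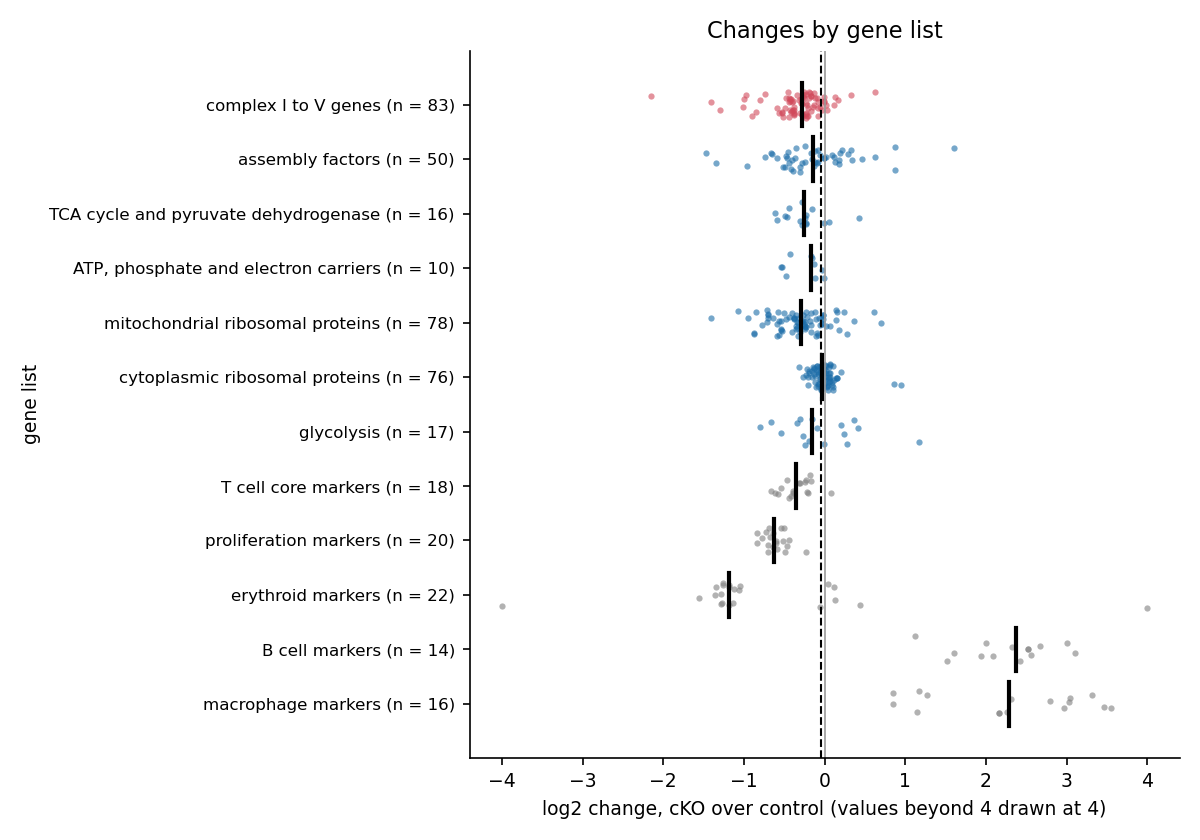
Log2 change, cKO over control (horizontal axis), of each gene by list (vertical axis), with the list's median as a black bar, on the deposited scale. The dashed line is the median of all genes (-0.04). The complex I to V genes (-0.28), the mitochondrial ribosome (-0.30) and the TCA cycle (-0.26) have medians near one another, the cytoplasmic ribosome lies near 0 (-0.03), and the B cell (2.37) and macrophage (2.28) markers lie far to the right.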

How the data were processed

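Single libraries of splenic Treg cells, 1 per genotype, were compared across 20938 genes. The authors aligned the reads to mm10 with TopHat according to the methods, whereas the submitters' processing notes name bcl2fastq 2.0, STAR, StringTie and DESeq2 without a role. The gene annotation and the counting tool are not given in the sources used here. Deposited was a signal value per gene, which is the number of whole reads divided by 1 size factor per library: dividing by the smallest value (0.967 in the control, 1.14 in the cKO library) gave whole numbers for 100% of the values within 0.01. Depth was 20239325 and 18327535 reads.

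Changes were computed with a pseudocount of 1, a minimum mean of 1 and a threshold of 1.5-fold, the fold given in the methods. Counting intervals were exact Clopper-Pearson intervals at 95%. The exact binomial test and edgeR's exact test, both with Benjamini-Hochberg adjustment over all genes, were run on recovered reads as alternatives and compare the libraries only. The alternatives also covered pseudocounts, filters, fold thresholds and scalings, and a minimum mean of 100 was added after the data were seen. The members, the named genes and the lists were chosen with earlier results of these data known. Named with values were members past 1.5-fold, the extremes of each complex, core catalytic subunits, isoform pairs, Atpif1, and the 2 highest and 2 lowest genes of a list as examples, and a few further members were added for their values. For 1 gene that the rule would name, values are not reported here. Coordinates, transcript lengths and shared windows came from GENCODE vM21 on GRCm38, which held 20773 of the genes, and promoters from RefSeq. With simulated reads that carried counting error alone and no biological variation, 95.7% of the intervals of 14801 genes held the true ratio. There, the binomial test called 100% and edgeR 96% of 200 genes changed by 2 on the log2 scale. Most members changed by far less, so these rates check the code and do not describe the differences reported here. Python 3.11.15 (numpy 2.4.6, pandas 2.3.3, scipy 1.17.1, matplotlib 3.10.9) and R 4.3.3 (edgeR 4.0.16, DESeq2 1.42.0 for size factors) were used.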

Additional observations from a re-analysis of the deposited data

How the results depend on the processing

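The lower level of the complex I to V genes depended on how the libraries were scaled. When T cell core genes were made equal, the members had a median change of 0.071, and the medians were 0.047, 0.12, 0.090, -0.046 and 0.13 for complexes I to V. In that scaling 6 members were at least 1.5-fold lower and 2 higher, while the median of all genes moved to 0.31. Of 39 named members, 17 went from below to above 0. For 11 of them the counting interval on the deposited scale had excluded 0: Atp5a1 (0.14), Atp5c1 (0.18), Atp5g2 (0.13), Atp5g3 (0.12), Cox6a1 (0.13), Cyc1 (0.090), Ndufs7 (0.011), Ndufv1 (0.092), Sdha (0.15), Sdhb (0.088) and Uqcrfs1 (0.071). The other 6 were Ndufs3 (0.23), Atp5l (0.30), Cox4i1 (0.35), Cox8a (0.27), Sdhc (0.34) and Uqcrh (0.33). That scaling also moved the share of higher genes among all genes past 1.5-fold from 41.6% to 62.2%. The cause of these differences is the common factor of 1.28 by which the cKO values were multiplied. Setting the library totals equal gave 0 members higher and 15 lower, and 36.3% of all genes past 1.5-fold were then higher. The median-of-ratios and TMM scalings, the pseudocounts, the filters and the treatment of Ndufa4 or the tissue isoforms left each complex median within 1 SD of its genes and on the same side of 0. The count of lower members was 4 at a threshold of 2-fold and 2 by edgeR's exact test. For the T cell core scaling, equal library totals and 2-fold, the shares of all genes lower and higher are not given here. Those counts are therefore no result about the members. The single higher member, Cox6a2, was lost (0 members) with a pseudocount of 5, a minimum mean of 10 or 100, a threshold of 2-fold, the binomial test and edgeR's exact test. No paired analysis was possible because there is a single library of each genotype. Biological variation was not measured, and differences of genotype, strain background, animal, cell makeup and library preparation cannot be told apart. Depth limits only the tissue isoforms with fewer than 40 reads, since every other tested member but Cox6b2 had at least 120 reads in each library.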
